A study of Mus musculus with 7 samples.

Results

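Transcripts of 10 genes that set the balance between phosphate, pyrophosphate and mineral-binding matrix proteins were examined in the mouse mesenchymal line C3H10T1/2. The genes, Alpl, Enpp1, Ank, Phospho1, Slc20a1, Slc20a2, Spp1, Mgp, Ibsp and Phex, were chosen by symbol for their roles in mineralization, and each had 1 row among the 18468 genes of the table. The question was whether Alpl, the alkaline phosphatase gene, rises by itself or together with other genes of pyrophosphate and phosphate handling. The cells, for which the labels name no introduced gene, spent 12 h without serum and then a further 48 h, still serum-free, exposed to 2 μM purmorphamine, a small-molecule agonist of Smoothened (n = 4 libraries, numbered 5 to 8), or to its vehicle, 0.02% DMSO (n = 3 libraries, numbered 2 to 4). No ascorbic acid or β-glycerophosphate, the usual additions to osteogenic medium, is named for these cultures. Values are reads per gene on the sense strand, which the authors resampled to equal depth, with totals per library from 14337225 to 14342154. A library with 0 reads of a gene could hold up to 3 (0.209 CPM, counts scaled to library size), by counting error alone. Nothing in the labels says that the libraries came from separate cultures, so the tests measure the spread between libraries, which may be technical.

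Mineral in bone and cartilage is calcium phosphate, and its growth depends on the ratio of phosphate to pyrophosphate outside the cell. Pyrophosphate, made from ATP by the ectoenzyme Enpp1 and released from cells with the help of the membrane protein Ank, blocks crystal growth. Alkaline phosphatase (Alpl) splits pyrophosphate into phosphate, Phospho1 frees phosphate from phosphocholine inside matrix vesicles, and Slc20a1 and Slc20a2 (PiT-1 and PiT-2) carry phosphate into cells. Spp1 (osteopontin), Ibsp (bone sialoprotein) and Mgp (matrix Gla protein) are secreted proteins that bind mineral, and Phex is a membrane peptidase of osteoblasts and osteocytes that cleaves osteopontin-derived peptides and whose loss causes phosphate wasting.

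Sequence upstream of the annotated starts is shown for Alpl, which went from almost no reads to many, and for Enpp1 and Spp1, which fell the most among the members. Each line gives the 250 bases before a RefSeq transcript start in GRCm38.p6, on the strand of the gene, with matches to the Runx core in capitals. Alpl has 2 annotated starts, and counts per gene cannot tell which of them was used.
Alpl, distal start, chr4:137796385-137796634, minus strand: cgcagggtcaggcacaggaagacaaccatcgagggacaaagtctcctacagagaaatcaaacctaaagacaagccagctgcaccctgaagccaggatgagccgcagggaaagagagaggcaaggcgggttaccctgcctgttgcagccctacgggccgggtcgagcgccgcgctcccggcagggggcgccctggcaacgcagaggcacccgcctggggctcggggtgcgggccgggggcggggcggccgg
Alpl, proximal start, chr4:137766476-137766725, minus strand: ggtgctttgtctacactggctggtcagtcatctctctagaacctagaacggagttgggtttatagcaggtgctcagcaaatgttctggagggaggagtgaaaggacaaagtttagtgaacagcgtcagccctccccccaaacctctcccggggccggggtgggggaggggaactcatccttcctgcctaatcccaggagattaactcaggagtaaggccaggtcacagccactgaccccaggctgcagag
Enpp1, chr10:24712160-24712409, minus strand: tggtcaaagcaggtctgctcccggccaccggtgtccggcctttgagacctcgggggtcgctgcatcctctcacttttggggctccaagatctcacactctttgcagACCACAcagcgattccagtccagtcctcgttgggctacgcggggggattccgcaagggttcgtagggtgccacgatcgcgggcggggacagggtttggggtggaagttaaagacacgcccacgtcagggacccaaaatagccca
Spp1, chr5:104434861-104435110, plus strand: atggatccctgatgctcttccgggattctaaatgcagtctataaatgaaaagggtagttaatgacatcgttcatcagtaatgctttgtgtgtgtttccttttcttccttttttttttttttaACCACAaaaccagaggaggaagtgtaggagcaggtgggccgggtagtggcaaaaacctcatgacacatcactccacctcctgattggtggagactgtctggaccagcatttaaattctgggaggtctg
Windows were found for 8 of the 10 genes (11 windows in all), and Slc20a2 and Mgp had none. They were searched on both strands for the Gli consensus GACCACCCA, the Runx core ACCACA and the Sox core AACAAT, none of which contains another. The Gli consensus was in none of the 11 windows. It was in only 0.225% of all 32851 promoter windows of the same length, so its absence from 11 windows carries no information. The Runx core was in 3 of them, those of Enpp1 (first base 144 bases before the start), Spp1 (128 bases before the first of its 2 annotated starts) and the first start of Slc20a1 (77 bases before), against 14% of all windows. The window of the second Spp1 start, not shown, had no match, and neither had that of the second Slc20a1 start. The Sox core was in none, against 9.42% of all windows. These matches describe letters only and were not tested for binding.

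Alpl was not the only gene that rose, and other members fell. Of the 8 members with enough reads to be tested, 3 rose (Alpl, Mgp and Slc20a1), 4 fell (Spp1, Enpp1, Phex and Slc20a2) and Ank did not pass the test. The test was the quasi-likelihood one of edgeR, with p-values adjusted by Benjamini-Hochberg over 12388 genes and a threshold of 0.2. Ibsp and Phospho1 had at most 3 reads in any library and were not tested. Among all genes tested, 62.5% passed the same threshold (31.4% increased and 31.1% decreased), so the members' share is not read as particular to them. With libraries scaled by their totals alone, 4650 genes increased and 3163 decreased, in place of 3887 and 3854. Changes of at least 2-fold were rarer, with 3.2% of all genes tested increased and 3.45% decreased by that much. Among them were 5 members: Alpl and Mgp higher, and Spp1, Enpp1 and Phex lower. The 10 genes were chosen with earlier results of these data known, so this count is not read as an enrichment. In each of the 7 members called, the groups did not overlap, as was the case for 49.5% of all genes tested (29.1% with purmorphamine higher and 20.4% with it lower). Alpl passed the filter on low counts only through its purmorphamine libraries. As a check of the labels, Gli1, a transcription factor gene induced through Smoothened, went from 10.0 ± 2.65 reads (SD, n = 3) to 2770.0 ± 295 (SD, n = 4).

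**Figure D1:**
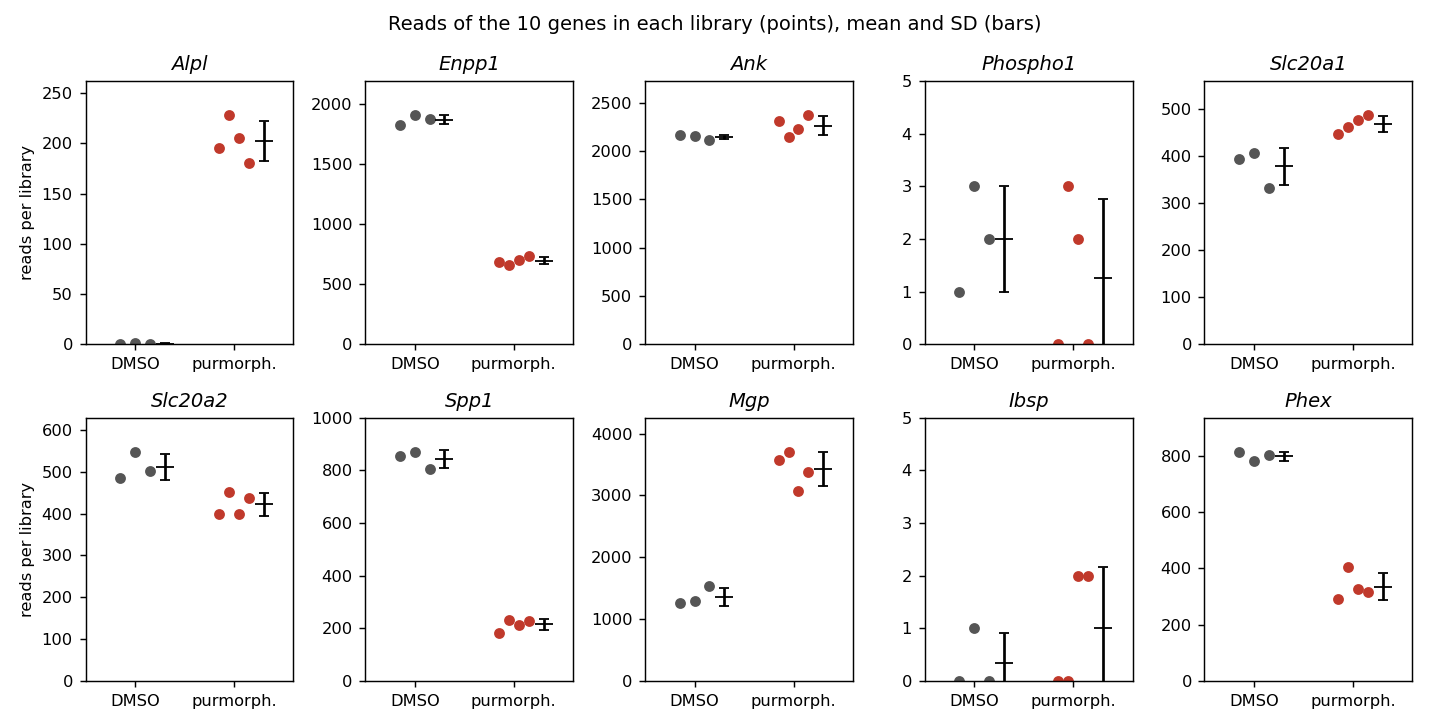
Reads per library (vertical axes, linear from 0, a separate scale for each gene) of the 10 genes, with vehicle in grey (3 points) and purmorphamine in red (4 points), and the mean and SD as bars. Alpl goes from at most 1 read to between 181 and 228, Enpp1, Spp1 and Phex fall, Mgp rises, and Phospho1 and Ibsp stay at 3 reads or fewer.

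Alpl (ENSMUSG00000028766, chromosome 4 from 137741733 to 137796384, minus strand, GRCm38) gave 0, 1 and 0 reads in vehicle libraries 2, 3 and 4, against 195, 228, 205 and 181 reads in the purmorphamine libraries 5 to 8. Every purmorphamine library was far above every vehicle library. With a single vehicle read in all, the ratio of the mean reads was 607 with a 95% interval from 109 to 23995 (exact binomial, counting error only). Because Alpl entered the edgeR test only through its purmorphamine libraries, no adjusted p is given for it. Without DMSO replicate 3, which held that read, no vehicle read was left, and Alpl was then at least 67.4-fold higher, against 3 reads per library. Very few genes of the table went from off to on in this way. With no more than 3 reads in every vehicle library and at least 100 in every purmorphamine library, there were 3 genes of 18468, namely Alpl, Hhip and Sostdc1. Hhip, a Hedgehog-binding membrane protein, had a mean of 165 reads with purmorphamine, and Sostdc1, a secreted antagonist of BMP and Wnt signaling, had 143. No gene went from at least 100 reads to 3 or fewer by the same rule.

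Enpp1 (ENSMUSG00000037370, chromosome 10 from 24637914 to 24712159, minus strand), whose product makes the pyrophosphate that Alpl removes, had 1829, 1907 and 1876 vehicle reads against 686, 662, 704 and 738 after purmorphamine. All 4 purmorphamine libraries lay below all 3 vehicle libraries, with little spread in either group. Mean reads were 1871 ± 39.3 with vehicle (SD, n = 3) against 698 ± 32.0 after treatment (SD, n = 4), and the log2 fold change was -1.47 with a standard error of 0.0501 (edgeR adjusted p = 3.93e-13).

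Per kilobase of exon, Alpl reached 62.4 to 87.6 for every 100 of Enpp1 in the purmorphamine libraries, against at most 0.133 in the vehicle libraries. These ratios rest on the summed exon lengths of all annotated transcripts, which may differ from the transcripts present.

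Ank (ENSMUSG00000022265, chromosome 15 from 27466677 to 27594909, plus strand), the gene for the membrane protein of pyrophosphate release, had 2160, 2153 and 2118 vehicle reads against 2311, 2139, 2224 and 2368 after purmorphamine. The groups overlapped. The log2 fold change was 0.03 with a 95% interval from -0.07 to 0.13 (adjusted p = 0.642 from edgeR). When libraries were scaled by their totals alone, the log2 fold change was 0.08 and the adjusted p 0.189, which passes the threshold of 0.2. Between both suppliers of pyrophosphate, the transcripts of the enzyme fell, and those of Ank did not pass the test in the main scaling.

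On the list of other genes of pyrophosphate and nucleotide handling, 8 of 11 genes had a row in the table. Abcc6, Nt5e and Entpd1 were not tested, and of the 5 genes tested, 4 fell, none rose and 1 did not pass the test, where 31.1% of all genes tested decreased and 31.4% increased. The median log2 fold change of the list was -0.51 against 0.004 for all genes tested. No enrichment was tested for this or any other list. Enpp3, an ectoenzyme related to Enpp1 that also hydrolyses nucleotides, had 309, 300 and 303 vehicle reads against 156, 139, 126 and 143 after purmorphamine, a log2 fold change of -1.15 with a standard error of 0.088 (edgeR adjusted p = 1.0e-08). Ppa1, the cytosolic inorganic pyrophosphatase, fell from 482 ± 41.0 to 251 ± 17.3 reads (log2 fold change -0.99, adjusted p = 2.04e-08). Slc29a1, a nucleoside transporter, fell from 3844 ± 146 to 2797 ± 232 reads (log2 fold change -0.51, adjusted p = 1.5e-06). Ppa2, the mitochondrial pyrophosphatase, fell slightly (log2 fold change -0.21, adjusted p = 0.0295), and its groups overlapped. Abcc6, the transporter of liver that supports ATP release, had at most 1 read in any library, and Nt5e, which turns AMP into adenosine and phosphate, had 6 to 15. The other alkaline phosphatases on the list, Akp3, Alpi and Alppl2, were the genes without a row and were not analysed here.

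**Figure D2:**
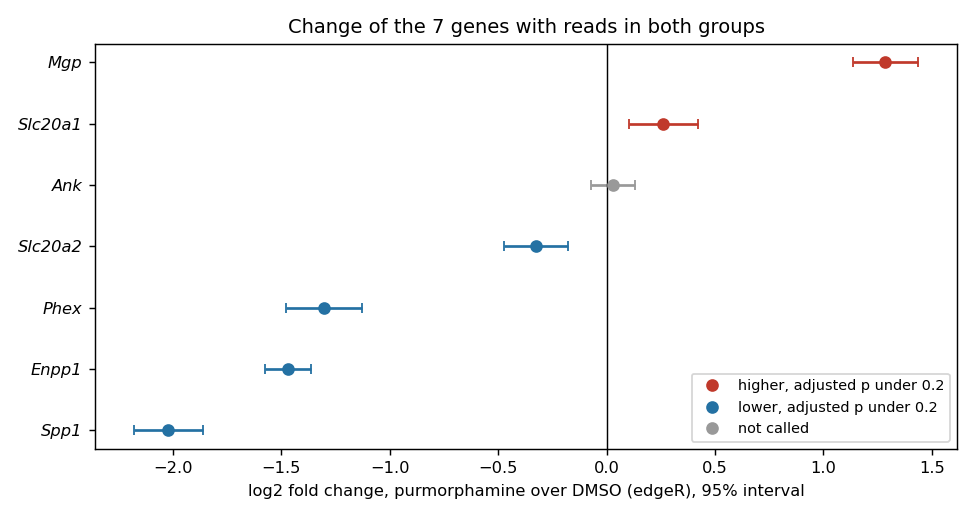
Log2 fold change of purmorphamine over vehicle (horizontal axis, edgeR) with its 95% interval for the 7 tested genes other than Alpl, whose fold change rests on a single vehicle read. Mgp and Slc20a1 lie above 0, the interval of Ank from -0.07 to 0.13 includes 0, and Slc20a2, Phex, Enpp1 and Spp1 lie below 0.

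The phosphate importers changed a little, and in opposite directions. Slc20a1 (ENSMUSG00000027397, chromosome 2 from 129198764 to 129211616, plus strand) had 395, 407 and 333 vehicle reads against 447, 462, 478 and 487 after purmorphamine, a log2 fold change of 0.26 with a standard error of 0.0755 (edgeR adjusted p = 0.00918). Slc20a2 (ENSMUSG00000037656, chromosome 8 from 22476788 to 22569612, plus strand) had 486, 547 and 502 vehicle reads against 398, 451, 400 and 438 after purmorphamine, a log2 fold change of -0.33 with a standard error of 0.0692 (edgeR adjusted p = 0.000946). For each of them the groups did not overlap, and neither change reached 1.5-fold.

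Set side by side per kilobase of exon, the order of both importers turned. Slc20a1 made up 42.5% to 47.5% of their summed level in the vehicle libraries and 53.3% to 57.1% in the purmorphamine libraries. The sum itself, 140.4 to 161 reads per kilobase with vehicle and 144 to 158 with purmorphamine, overlapped between the groups.

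The other phosphate transporters tested had smaller changes. Of the 5 genes on the list, Xpr1 and Slc25a3 had rows in the table and were tested, and Slc34a1, Slc34a2 and Slc34a3 were not analysed here. Xpr1, the phosphate exporter, rose from 1509 ± 60.2 to 1681.5 ± 92.7 reads (log2 fold change 0.11, adjusted p = 0.107 from edgeR), but its groups overlapped and the call was lost without DMSO replicate 3 (adjusted p = 0.275), DMSO replicate 4 (0.253) or purmorphamine replicate 8 (0.20006). Slc25a3, the mitochondrial phosphate carrier, fell by 0.10 on the log2 scale (adjusted p = 0.0627), with overlapping groups and an adjusted p of 0.292 under scaling by library totals alone.

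Of the enzymes that supply phosphate inside vesicles, Phospho1 (ENSMUSG00000050860, chromosome 11 from 95824499 to 95832140, plus strand) had 1, 3 and 2 vehicle reads against 0, 3, 2 and 0 after purmorphamine. Both groups were at the limit that a count of 0 allows, and no change was detectable at this depth. Smpd3, the sphingomyelinase that can provide its substrate, had 3 to 6 reads in every library. On the list of choline phospholipid supply and matrix vesicles, all 10 genes had a row, 9 were tested, 2 rose, 4 fell and 3 did not pass the test (median log2 fold change -0.11). The 6 of 9 called are near the 62.5% of all genes tested. Chkb, a choline kinase that makes phosphocholine, rose from 544 ± 61.1 to 746 ± 48.5 reads (log2 fold change 0.41, adjusted p = 0.000256 from edgeR), and Pcyt1a, which uses phosphocholine, rose by 0.19 on the log2 scale (adjusted p = 0.00275). The annexins Anxa5 and Anxa6, found in matrix vesicles, fell by 0.26 each (adjusted p = 0.000109 and 0.000508), and Gpcpd1, which cleaves glycerophosphocholine, fell by 0.31 (adjusted p = 0.00129), though its groups overlapped. Enpp6, an ectoenzyme that releases phosphocholine, was named after its values had been seen and had 28, 36 and 37 vehicle reads against 3, 2, 1 and 2 after purmorphamine. It is among the 4 that fell, but it passed the filter on low counts only through its vehicle libraries, and no fold change is given.

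Spp1 (ENSMUSG00000029304, chromosome 5 from 104435118 to 104441050, plus strand), the osteopontin gene, had 854, 870 and 806 vehicle reads against 184, 233, 213 and 228 after purmorphamine. All purmorphamine libraries lay far below the vehicle libraries. Mean reads were 843 ± 33.3 with vehicle (SD, n = 3) against 214.5 ± 22.0 after treatment (SD, n = 4), 3.93-fold lower with purmorphamine, and the log2 fold change was -2.02 with a standard error of 0.0745 (edgeR adjusted p = 9.56e-13), the largest decrease among the members.

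Mgp (ENSMUSG00000030218, chromosome 6 from 136872435 to 136875823, minus strand), an inhibitor of soft-tissue calcification, went the other way, with 1255, 1296 and 1528 vehicle reads against 3565, 3700, 3063 and 3380 after purmorphamine. The lowest purmorphamine library was above the highest vehicle library. The mean rose 2.52-fold, from 1359.7 ± 147 (SD, n = 3) to 3427 ± 276 reads (SD, n = 4), and the log2 fold change was 1.29 with a standard error of 0.0716 (edgeR adjusted p = 1.7e-10). The 2 inhibitory matrix proteins with reads changed in opposite directions. Per kilobase of exon, Mgp was 2.04 to 2.63 times Spp1 with vehicle and 19.97 to 26.9 times with purmorphamine.

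Ibsp (ENSMUSG00000029306, chromosome 5 from 104299171 to 104311469, plus strand), a marker of mineralizing osteoblasts, had 0, 1 and 0 vehicle reads against 0, 0, 2 and 2 after purmorphamine, and no change was detectable. It lies near Spp1 in a cluster of genes for acidic mineral-binding proteins that also holds Dmp1 (chromosome 5 from 104202613 to 104214102). The 3 genes span 238 kb. Dmp1, a gene of osteocytes and odontoblasts, had 81, 79 and 95 vehicle reads against 10, 9, 19 and 10 after purmorphamine (log2 fold change -2.86, standard error 0.216, adjusted p = 9.0e-09 from edgeR), so that both genes of the cluster with more than a few reads fell. Mepe and Dspp, of the same gene family, were not analysed here.

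On the list of mineral-binding matrix proteins and their processing, 13 of 15 genes had a row, 9 were tested, 1 rose, 6 fell and 2 did not pass the test (median log2 fold change -0.23, with 62.5% of all genes tested called and 31.1% decreased). Itgb3, a subunit of the integrin that binds osteopontin, fell from 787 ± 15.6 to 409 ± 22.1 reads (log2 fold change -0.99, adjusted p = 5.45e-10 from edgeR). Cd44, another osteopontin receptor, rose from 2017 ± 26.4 to 3281.5 ± 170 reads (log2 fold change 0.65, adjusted p = 1.14e-08). Sparc (osteonectin) fell by 0.58 on the log2 scale (adjusted p = 1.74e-07). The osteocalcin genes Bglap, Bglap2 and Bglap3, near-identical copies whose reads may be split between them, had at most 6 reads in any library. Col1a1, a gene of the main collagen of bone, had 14058 ± 522 and 15292 ± 1445 reads (adjusted p = 0.341). It passed the threshold without purmorphamine replicate 7 (adjusted p = 0.121) or replicate 8 (0.194), and under scaling by library totals alone (0.121). Col1a2, another gene of that collagen, fell from 73327 ± 1624 to 64660 ± 2369 reads (log2 fold change -0.23, adjusted p = 0.000766 from edgeR).

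Phex (ENSMUSG00000057457, chromosome X from 157162075 to 157415312, minus strand) had 813, 781 and 801 vehicle reads against 290, 403, 328 and 317 after purmorphamine. All 4 purmorphamine libraries were below the vehicle libraries, with library 6 the highest of the 4. Mean reads were 798 ± 16.2 with vehicle (SD, n = 3) against 334.5 ± 48.4 after treatment (SD, n = 4), and the log2 fold change was -1.30 with a standard error of 0.0826 (edgeR adjusted p = 9.37e-10).

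On the list of the hormonal control of phosphate, the pathway in which Phex acts, 9 of 11 genes had a row, 7 were tested, 1 rose, 5 fell and 1 did not pass the test (median log2 fold change -0.48, with 31.4% of all genes tested increased and 31.1% decreased). Fgf23, the phosphate-wasting hormone, and Kl, its co-receptor, had at most 1 read in any library. Fam20a, a pseudokinase partner of Fam20c, fell from 120 ± 5.51 to 65.0 ± 11.5 reads (log2 fold change -0.93, adjusted p = 2.61e-05 from edgeR), and Vdr, the vitamin D receptor, fell from 662 ± 19.5 to 412 ± 32.6 reads (log2 fold change -0.73, adjusted p = 1.45e-07). Cyp27b1, which activates vitamin D, fell from 30.3 ± 5.13 to 20.5 ± 0.577 reads (log2 fold change -0.61, adjusted p = 0.0235). Fam20c, the secretory kinase that phosphorylates osteopontin and Dmp1, was the 1 gene that rose, from 727 ± 89.7 to 970.5 ± 17.3 reads (log2 fold change 0.37, adjusted p = 0.000275).

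**Figure D3:**
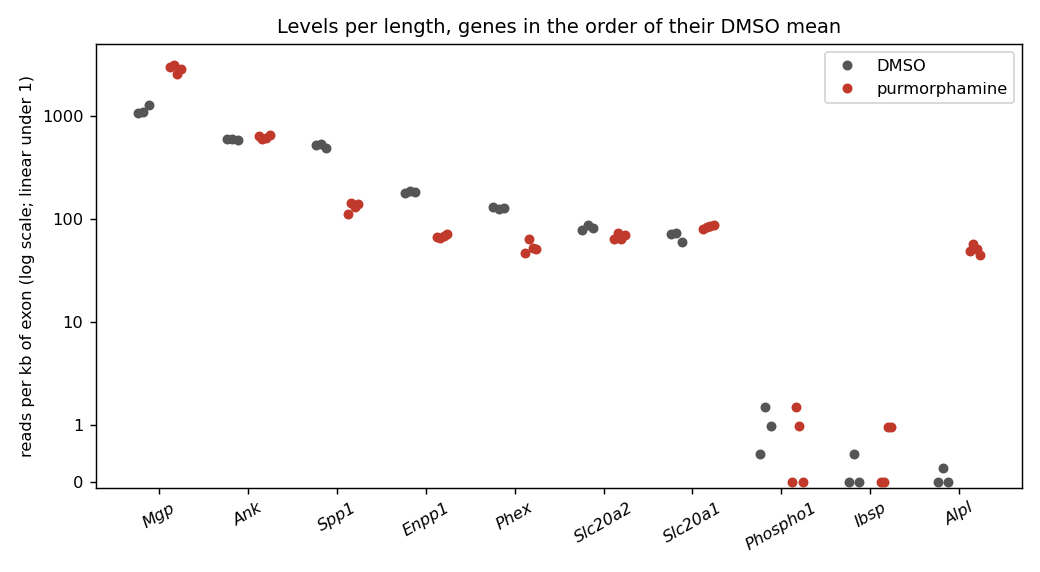
Reads per kilobase of exon (vertical axis, log scale, linear under 1) in each library for the 10 genes, ordered by their vehicle mean, with vehicle in grey and purmorphamine in red. Mgp is highest in both groups, and Alpl moves from the floor, where Phospho1 and Ibsp remain, to between 44.9 and 56.5, near Phex and Enpp1.

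Per kilobase of exon, the vehicle level fell in the order Mgp (mean 1145), Ank (594), Spp1 (512), Enpp1 (182), Phex (127), Slc20a2 (82.3) and Slc20a1 (67.8 reads per kilobase), and the libraries of neighbouring genes did not overlap. Phospho1, Ibsp and Alpl lay under 1.5 reads per kilobase and were not ordered among themselves. With purmorphamine the order was Mgp (2887), Ank (626), Spp1 (130), Slc20a1 (84.0), Enpp1 (68.0), Slc20a2 (67.8), Phex (53.2) and Alpl (50.1 reads per kilobase). There the ranges of Enpp1 and Slc20a2, of Slc20a2 and Phex, and of Phex and Alpl overlapped across libraries. Within each purmorphamine library, however, Slc20a2 had more reads than Phex, with a slightly shorter exon length (6216 against 6291 bases).

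Taken gene by gene, an exact two-sided permutation test gave p = 0.0286 for Enpp1, Slc20a1, Slc20a2, Spp1, Mgp and Phex. This p was not adjusted for the number of members tested and is the smallest that the 35 ways of assigning the libraries allow. No p is given for Alpl, which passed the filter on low counts only through its purmorphamine libraries. The same exact permutation test gave p = 0.457 for Ank.

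Transcription factors of osteoblasts, which act upstream of several of these genes, were also counted. Of the 6 genes on the list 4 were tested, 3 rose, none fell and 1 did not pass the test (median log2 fold change 0.44, with 31.4% of all genes tested increased). Runx2 rose from 1531 ± 72.9 to 2144 ± 99.4 reads (log2 fold change 0.44, adjusted p = 2.49e-06 from edgeR), and Dlx5 from 92.7 ± 9.29 to 153 ± 29.7 (log2 fold change 0.68, adjusted p = 0.00108). The last, Msx2, rose by 0.44 with an adjusted p of 0.124, and the call was lost without DMSO replicate 2 (adjusted p = 0.229) and in DESeq2 (adjusted p = 0.350). Sp7 (osterix), which defines committed osteoblasts, had 2 reads in each vehicle library and 3 to 9 with purmorphamine.

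Cartilage markers fell in the same libraries in which Spp1, Enpp1, Phex and Slc20a2 fell. In those libraries Alpl, Mgp and Slc20a1 rose, and Ank did not pass the test. All 6 markers tested fell, where 31.1% of all genes tested decreased. Among them, Acan had 112, 128 and 131 vehicle reads against 5, 3, 6 and 11 after purmorphamine. Acan passed the filter on low counts only through its vehicle libraries, and no fold change is given for it. The summed reads of the 6 markers were 13526 to 13890 per library with vehicle and 2777 to 3528 with purmorphamine. Col10a1, the collagen of hypertrophic cartilage that mineralizes, fell from 472 ± 14.4 to 54.2 ± 2.06 reads (log2 fold change -3.17, adjusted p = 5.48e-14 from edgeR), and Sox9, the transcription factor of cartilage, from 5554 ± 273 to 2095.5 ± 116 (log2 fold change -1.45, adjusted p = 5.72e-13). The part of this shift in the results of the 10 genes, those that fell and those that rose, was not tested. In RNA from whole cultures, fewer cells of a type and less RNA per cell cannot be told apart. Of the markers of macrophages and osteoclasts, which also make osteopontin, 6 had a row, with summed reads of 20 to 23 with vehicle and 21 to 33 with purmorphamine. Ptprc, Acp5 and Itgam had at most 1 read in any library and Csf1r at most 3. Cd68 had 10 to 18 reads with overlapping groups. Ctsk, the collagen-degrading protease of osteoclasts, had 4 to 7 reads with vehicle and 11 to 19 with purmorphamine. Ctsk passed the filter on low counts only through its purmorphamine libraries, and no p is given. Its part in the results of the 10 genes was not tested. Of the 8 mesenchymal markers, 6 rose, 1 fell and 1 did not pass the test, where 31.4% of all genes tested increased and 31.1% decreased. Their summed reads were 197323 to 200060 with vehicle and 185199 to 196456 with purmorphamine. These sums include Vim, the 1 marker that fell, from 80155 ± 1150 to 42480 ± 843 reads. The 2 adipocyte markers with a row summed to 47 to 65 reads with vehicle and 19 to 28 with purmorphamine. For both markers the groups did not overlap and purmorphamine was lower, as was the case for 20.4% of all genes tested. Fabp4, a fatty acid-binding protein, fell from 43.3 to 17.0 reads on average (log2 fold change -1.39, adjusted p = 3.12e-05 from edgeR), and Adipoq, with 4 to 19 reads, was not tested. The part of this fall in the results of the 10 genes was not tested either. Of 5 endothelial and epithelial markers with a row, only 2 were tested, Cdh5 and Cdh1, and both rose, where 31.4% of all genes tested increased. Cdh5 went from 0 reads in all vehicle libraries to 21 to 26, at least 7.75-fold against 3 reads per library. It passed the filter on low counts only through its purmorphamine libraries, and no p is given. Pecam1 had at most 5 reads and Kdr at most 4.

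**Figure D4:**
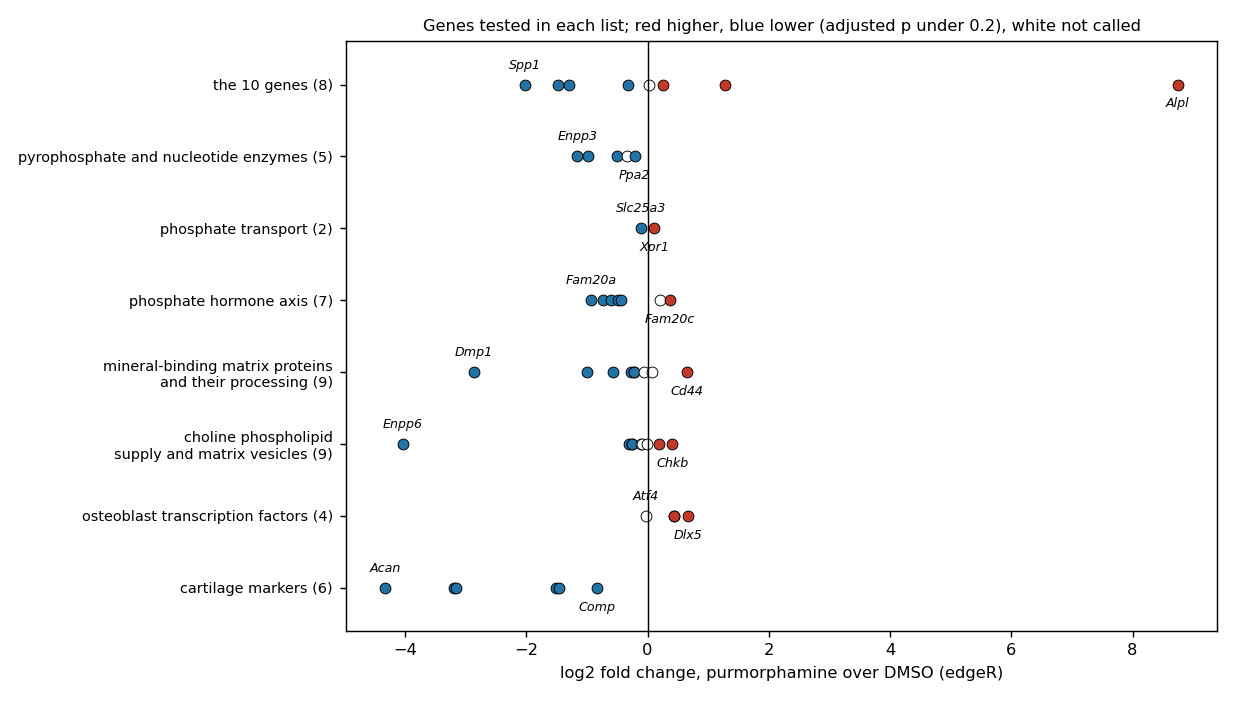
Log2 fold change of purmorphamine over vehicle (horizontal axis, edgeR) for every tested gene of each list, with the number tested in parentheses, red for higher and blue for lower at an adjusted p under 0.2, and white for not called. The lowest and highest gene of each list are named, the cartilage markers all lie below 0, and the position of Alpl depends on how a single vehicle read is treated.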

How the data were processed

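RNA of 7 libraries, 3 with vehicle and 4 with purmorphamine, grouped by their titles, was sequenced by the authors from stranded total RNA depleted of ribosomal RNA, as single reads of 100 bases. The submitters' processing notes name STAR 2.5.3a and mm9. The authors resampled the reads to equal numbers and deposited whole-number counts of sense-strand reads per gene. The annotation version is not given in the sources used here. 

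The analysis applied edgeR 4.0.16 (R 4.3.3, limma 3.58.1) with TMM factors, its default filter on low counts (minimum 10, total 15) and a quasi-likelihood test without covariates, to the counts. The study's threshold of 0.2 on Benjamini-Hochberg adjusted p-values set the calls. Of 18468 genes, 12388 passed the filter. Standard errors were derived from the F statistics, and scripts were tested on simulated data. The exact permutation test used log2 of TMM-scaled counts with 1 added. Ensembl identifiers matched 17632 genes to GENCODE M21 (GRCm38), the source of positions and exon lengths, and promoter windows came from RefSeq (GRCm38.p6). Bglap3 was matched by identifier.

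The 10 genes and all lists were chosen with earlier results of these data known. Besides the 10 genes, up to 3 increases and 3 decreases per list were named, the largest among called genes whose mean reached 20 reads, with genes of the treatment check and off-to-on genes. Markers whose mean reached 20 reads in either group could be named, and only some were. Ptch1, of the treatment check, is not described, and 1 gene first placed on a list is not reported here and was left out of the counts over the lists. Genes named for low reads, and Ppa2, Col1a1, Col1a2, Acan, Ctsk and Enpp6, were named after their values had been seen. Alternatives were library totals alone, DESeq2 size factors, DESeq2 1.42.0, limma-voom, other filters, stricter thresholds, each library left out and an untransformed permutation test.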

Additional observations from a re-analysis of the deposited data

Results flagged for a closer look

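Among the purmorphamine libraries, 1 library stood apart from the other 3 for 2 of the 39 genes examined, where chance alone gives about 1.95 genes. For Dmp1 the gap between the highest library and the next made up 0.898 of the range after TMM scaling, with 10, 9, 19 and 10 reads in libraries 5 to 8. For Xpr1 the lowest library stood apart, with a gap of 0.854 of the range and 1711, 1544, 1726 and 1745 reads. None of the 10 mineralization genes was among them. Groups of 3 libraries were not examined in this way.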

How the results depend on the processing

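No paired analysis was possible because vehicle libraries are numbered 2 to 4 and purmorphamine libraries 5 to 8, with no number in common. Across all alternatives, from 2 to 4 of the 10 genes rose and from 3 to 4 fell, and Spp1, Enpp1, Phex and Mgp kept direction and call in all 15 alternatives fitted. Ank was called higher under library totals alone (adjusted p = 0.189 from edgeR). A filter of at least 10 counts in every library removed Alpl by its construction. Requiring a change of 1.5-fold left 977 increased and 936 decreased genes in place of 3887 and 3854, left 2 increased and 8 decreased genes of the 6 pathway lists in place of 8 and 20, and ended the calls of Slc20a1 and Slc20a2. Library totals alone moved the median log2 fold change of all genes tested from 0.004 to 0.05. With single libraries left out, the log2 fold change of Spp1 ran from -2.05 to -1.95, Enpp1 from -1.49 to -1.44, Phex from -1.39 to -1.23, Mgp from 1.24 to 1.38, Slc20a1 from 0.18 to 0.31 and Slc20a2 from -0.36 to -0.28. The exact permutation test was not repeated without single libraries, since its smallest p is then 0.0667 or 0.1. Depth limits Phospho1, Ibsp and the vehicle level of Alpl, which lie at or under 3 reads. The 3 genes that went from off to on also numbered 3 on TMM-scaled counts, an alternative chosen after the data had been seen.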
